A study of Mus musculus with 16 samples.

Results

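Genes of mitosis and of the G2/M transition were followed through the first days of mouse myoblast culture. The 40 genes encode the mitotic cyclins and kinases, checkpoint proteins, kinetochore subunits, spindle motors and cytokinesis factors that take a cell from the end of DNA replication to its division. Mki67, which encodes the Ki-67 antigen of cycling cells, is among them. They were taken by name from a list, with no rule on their signal. The list was chosen with earlier results of these data known. Each of the 40 names stands on the array, among 34836 names in all. Testing was limited to genes with a median log2 signal of 5 or more over the arrays, which 20317 genes and all 40 members reached. The probe used for each member was well above background on all 16 arrays, and no member spot was saturated.

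RNA came from male C57Bl/6J mice of 11 to 13 weeks that had received no treatment, and was hybridized to one-color Agilent arrays, 4 for each of 4 groups. Dispersed myoblasts had been grown on gelatin-coated plastic without their fibers and were collected at 48 and 72 hr after isolation. Myofiber-associated myoblasts (MfA in the plots) had been growing on explanted single fibers and were stripped from them with trypsin at the same 2 times. Each dispersed preparation came from 1 mouse and each myofiber-associated one from 2 mice, and the 48-hr array numbered 10+11 carried a pool of 2 preparations. All 16 samples are named myofibers in 2 fields of the labels, so the culture was taken from the field on how the cells were grown.

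Satellite cells, the stem cells of skeletal muscle, rest in G0 on the intact fiber, enter the cycle when the fiber is isolated and divide as myoblasts until they differentiate or return to rest. In a dividing cell, cyclin A and the B cyclins activate CDK1, the spindle checkpoint delays anaphase until every chromosome is attached, and the anaphase-promoting complex then destroys securin, which frees separase to part the chromatids, and cyclin B, which lets the cell leave mitosis. Transcripts of this machinery are made mainly in G2 and M. In resting cells the DREAM complex represses them through the CHR element of their promoters. CCAAT boxes bind the activator NF-Y, and MYBL2 and FOXM1 activate the genes late in the cycle.

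The 8 dispersed arrays shared 1 slide and the 8 myofiber-associated arrays a different one, and slide effects and culture cannot be told apart. Both times of a culture shared a slide, with 72-hr arrays in columns 1 and 2 and 48-hr arrays in columns 3 and 4, so time and column cannot be told apart either. Between 55.2% and 64.3% of spots were well above background. The median SD of a member over the 4 arrays of a group was 0.07 in dispersed myoblasts at both times, and 0.24 and 0.22 in myofiber-associated myoblasts at 48 and 72 hr. Markers were called at a Benjamini-Hochberg adjusted p under 0.01 by limma. Of all genes, 7.38% were called higher and 6.32% lower at 72 than at 48 hr in dispersed myoblasts. In myofiber-associated ones 3.74% and 1.74% were. Set against the dispersed culture, 27.0% were called lower and 16.1% higher in the myofiber-associated one at 48 hr, and 15.6% and 11.5% at 72 hr. Of 14 myoblast markers, 4 were called higher and 2 lower at 72 than at 48 hr in dispersed myoblasts, and 4 higher and 1 lower in myofiber-associated ones. Between the cultures, myofiber-associated myoblasts had 2 higher and 5 lower at 48 hr (median log2 difference -0.35), and 5 higher and 1 lower at 72 hr (0.41). The shares of these markers at 48 hr lay near those of all genes. The part of the myoblast markers in the results was not tested. The 22 markers of adult muscle fibers, among them the muscle creatine kinase gene Ckm, had a summed signal of 102900 to 166800 on the dispersed arrays. The 48-hr myofiber-associated arrays reached sums of 2834000 to 3668000 and their 72-hr counterparts 781600 to 2746000. None of the 22 was lower in myofiber-associated myoblasts at 48 hr, and 20 were called higher. Markers of other cell types had medians below 0 in the myofiber-associated culture at 48 hr, as the members had: 17 of 18 endothelial (median log2 difference -2.60), 9 of 15 leukocyte (-1.50), 5 of 9 pericyte (-1.75), 7 of 8 Schwann cell (-2.35) and 5 of 14 fibroblast markers (-0.54) were called lower, and 1 leukocyte marker higher. The fibroblast share was the nearest to that of all genes. Differences above 0 were found for 5 leukocyte, 1 pericyte and 5 fibroblast markers. Summed signals of the leukocyte and of the fibroblast markers overlapped between the cultures at 48 hr. At 72 hr 16 endothelial, 7 leukocyte, 3 pericyte, 5 Schwann cell and 8 fibroblast markers were called lower. Called higher there were 2 leukocyte markers and 1 fibroblast marker. Endothelial markers also fell over time, with 17 of 18 called in the dispersed culture and 12 in the other. The part of these cells in the results was not tested.

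RefSeq promoter windows of mouse build GRCm38.p6, from 250 bases before the transcription start to 50 after it, were given for 33 of the 40 members in 35 windows, 2 of which overlap another window of the same gene. No window was given for Ccna2, Aurkb, Incenp, Kif20a, Tpx2, Spc24 and Cdc25c. The windows were searched on both strands for TTTGAA, the core letters of the CHR element, and for CCAAT. The first motif, TTTGAA, stood in 27 of the 35 windows (77.1%), against 5878 of 32851 windows in all (17.9%), and CCAAT in 28 (80.0%) against 12289 (37.4%). Both stood in 24 windows of members (68.6%), against 6.95% of all windows. Windows of 89 other mitosis genes held TTTGAA in 40 of 100 cases and CCAAT in 60 of 100, and those of 34 DNA replication genes in 10.3% and 56.4%. The first base of a TTTGAA match lay at a median of 3 bases after the start, and that of a CCAAT match at a median of 65 bases before it. A match is a description of the letters and not of binding.

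The 7 stretches here show the 3 members that passed the strictest threshold in a comparison of times (Ect2, Anln and Nuf2), 3 of those whose change differed between the cultures at the looser threshold (Spc25, Cenpa and Ube2c) and Mki67. Each runs from 170 bases before the start to 30 after it, 5′ to 3′ on the gene's strand, with matches to both motifs on either strand in capitals.
Ect2, chr3:27153825-27154024, minus strand: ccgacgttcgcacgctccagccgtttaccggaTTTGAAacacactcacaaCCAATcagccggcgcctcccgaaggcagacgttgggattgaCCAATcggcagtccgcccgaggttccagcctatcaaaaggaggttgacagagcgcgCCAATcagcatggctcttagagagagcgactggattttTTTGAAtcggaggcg
Anln, chr9:22389177-22389376, minus strand: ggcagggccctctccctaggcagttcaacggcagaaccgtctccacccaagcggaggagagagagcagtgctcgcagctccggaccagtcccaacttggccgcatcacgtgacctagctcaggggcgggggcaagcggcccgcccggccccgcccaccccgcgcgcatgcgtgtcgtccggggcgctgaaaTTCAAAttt
Nuf2, chr1:169531435-169531634, minus strand: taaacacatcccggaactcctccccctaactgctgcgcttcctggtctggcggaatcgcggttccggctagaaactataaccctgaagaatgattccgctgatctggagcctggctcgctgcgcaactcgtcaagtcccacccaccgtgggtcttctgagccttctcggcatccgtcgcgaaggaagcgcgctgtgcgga
Spc25, chr2:69206184-69206383, minus strand: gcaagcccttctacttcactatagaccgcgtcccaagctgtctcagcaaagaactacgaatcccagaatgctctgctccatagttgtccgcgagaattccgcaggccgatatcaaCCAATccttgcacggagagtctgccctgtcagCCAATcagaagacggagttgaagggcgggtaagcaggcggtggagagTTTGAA
Cenpa, chr5:30666716-30666915, plus strand: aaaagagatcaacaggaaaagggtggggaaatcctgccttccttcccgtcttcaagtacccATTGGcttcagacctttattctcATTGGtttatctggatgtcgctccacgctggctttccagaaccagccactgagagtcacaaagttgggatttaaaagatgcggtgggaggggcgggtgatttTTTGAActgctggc
Ube2c, chr2:164769759-164769958, plus strand: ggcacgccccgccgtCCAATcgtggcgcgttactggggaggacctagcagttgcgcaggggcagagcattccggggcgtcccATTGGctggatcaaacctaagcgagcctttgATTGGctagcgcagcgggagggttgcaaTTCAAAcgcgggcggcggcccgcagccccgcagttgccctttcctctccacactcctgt
Mki67, chr7:135716350-135716549, minus strand: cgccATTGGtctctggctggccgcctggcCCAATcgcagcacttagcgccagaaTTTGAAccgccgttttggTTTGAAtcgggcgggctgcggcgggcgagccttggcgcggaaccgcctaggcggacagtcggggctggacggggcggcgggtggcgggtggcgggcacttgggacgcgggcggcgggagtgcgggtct
The Ect2, Spc25, Cenpa and Ube2c stretches combine both motifs in the arrangement common among the members, CCAAT boxes upstream and a TTTGAA near the start. Ect2 has a further TTTGAA at -138, upstream of its CCAAT boxes. Mki67 has both motifs, but its TTTGAA matches lie at -116 and -98. Anln has TTTGAA and no CCAAT, and Nuf2 has neither, as have Nusap1, Mad2l1 and Birc5. The 25 members with TTTGAA had a median log2 difference of 0.50 between 72 and 48 hr in myofiber-associated myoblasts, with a range of 0.29 to 0.70, and the 8 without it a median of 0.37 with a range of 0.31 to 0.77. In dispersed myoblasts the medians with and without it were 0.11 and 0.09. For the dispersed minus the myofiber-associated change they were -0.33 and -0.34. Between the cultures they were -0.59 and -0.49 at 48 hr, and -0.22 and -0.16 at 72 hr. Members with and without TTTGAA were not tested against each other.

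**Figure D1:**
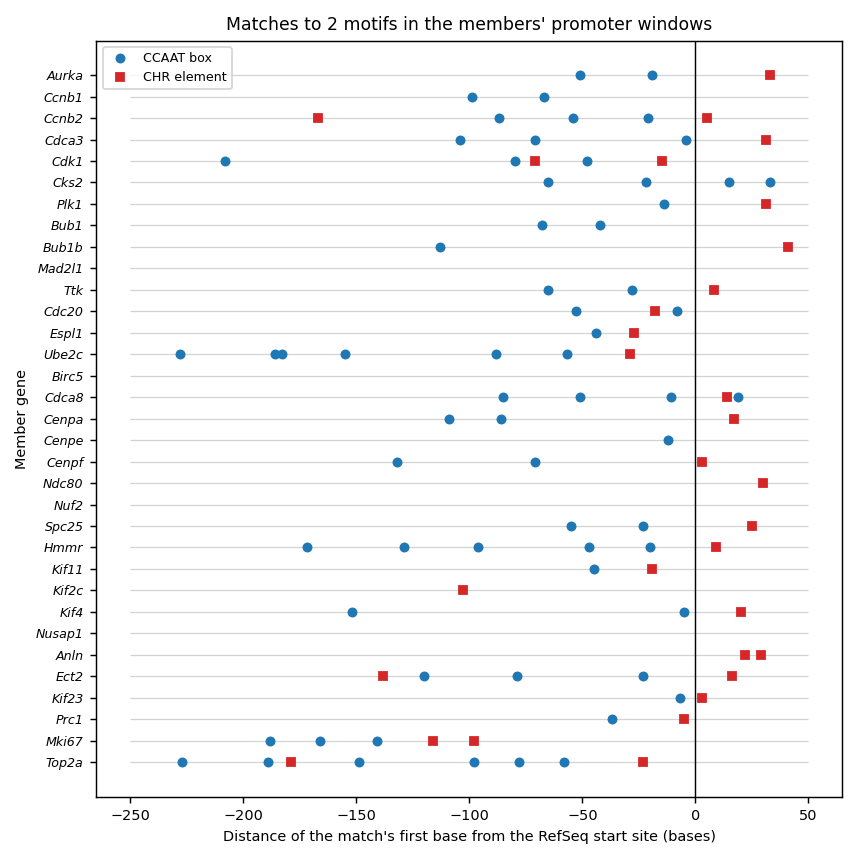
Positions of CHR (TTTGAA, red squares) and CCAAT (blue circles) matches on either strand in 1 promoter window for each of the 33 members that have one, as the distance in bases of the match's first base from the RefSeq start site. CCAAT matches lie mostly upstream and CHR matches mostly around the start. Over the matches in all 35 windows, including second windows not drawn, the medians were -65 (CCAAT) and 3 (CHR).

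Across the 16 arrays the members moved together. With each member's log2 signal set against its mean on the dispersed 48-hr arrays, the median of the 40 members was 0.085, -0.026, 0.001 and -0.062 on the dispersed 48-hr arrays numbered 1 to 4, and 0.176, 0.084, 0.08 and 0.096 on the dispersed 72-hr arrays numbered 5 to 8. On the myofiber-associated 48-hr arrays it was -0.37, -0.685, -0.39 and -0.818 for 10+11, 7, 8 and 9. On the myofiber-associated 72-hr arrays it was 0.074, -0.117, 0.04 and -0.361 for 1 to 4. The members were lowest on the myofiber-associated 48-hr arrays, all of which lay below every other array, and array 4 of the myofiber-associated 72-hr group lay next to them. That array held the lowest value of its group for 40 of 40 members, and array 9 the lowest of the myofiber-associated 48-hr group for 35 of 40. In a bulk sample, fewer dividing cells and less of each transcript per cell cannot be told apart.

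**Figure D2:**
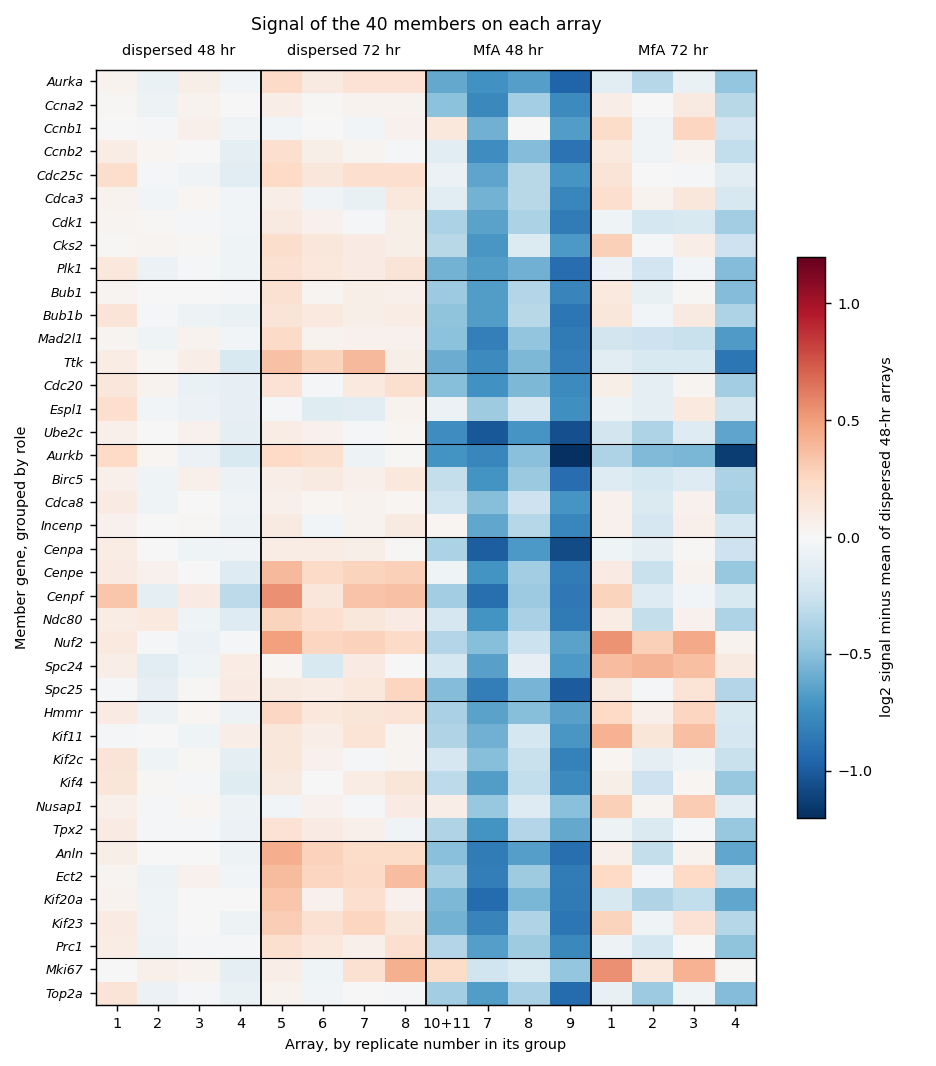
Heat map of the 40 members (rows, grouped by role) on the 16 arrays (columns, by group and replicate number), as log2 signal minus the member's mean on the 4 dispersed 48-hr arrays. The myofiber-associated (MfA) 48-hr columns are the bluest, with medians of -0.37 to -0.818, and array 4 of the MfA 72-hr group is bluer than the other 3 of its group.

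Adult fiber markers moved the other way on the myofiber-associated arrays. Their mean log2 signal was 14.24, 15.01, 14.60 and 15.20 on 48-hr arrays 10+11, 7, 8 and 9, and 12.52, 13.55, 12.28 and 13.95 on 72-hr arrays 1 to 4. Within the 48-hr group the order of the arrays by these markers was the reverse of their order by the members' median. At 72 hr arrays 2 and 4 had the most fiber signal and the lowest members' medians, while arrays 1 and 3 stood close to each other on both measures. On the dispersed arrays the marker mean was 8.80 to 10.26 and the members' medians spanned -0.062 to 0.176. Myoblast markers had a mean of 12.01 to 12.35 at 48 hr and 12.50 to 12.60 at 72 hr in the myofiber-associated groups. The part of fiber RNA in the members' differences was not tested.

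**Figure D3:**
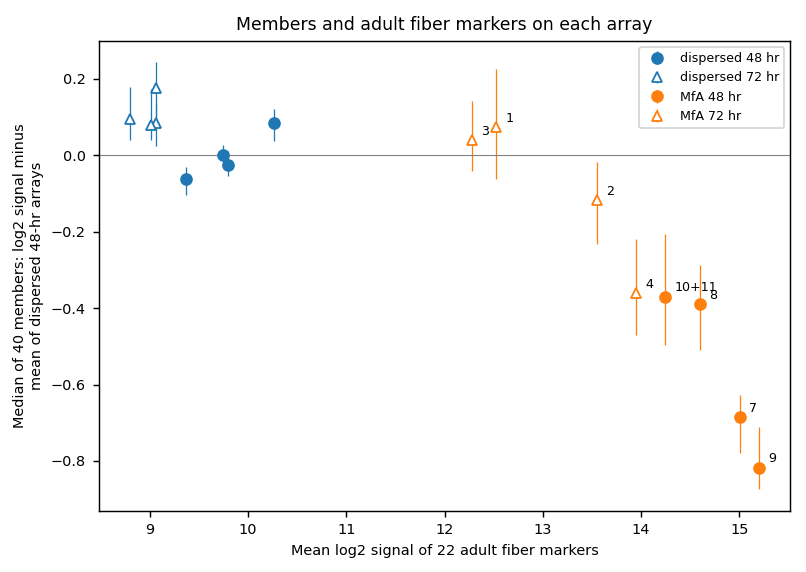
Median of the 40 members on each array (vertical axis, log2 signal minus the mean of the dispersed 48-hr arrays, with bars from the lower to the upper quartile of the members) against the mean log2 signal of 22 adult fiber markers (horizontal axis). Dispersed arrays (blue) lie near 0. The myofiber-associated arrays (orange, with replicate numbers) run from 0.074 on 72-hr array 1 (fiber mean 12.52) to -0.818 on 48-hr array 9 (15.20). The lowest fiber mean, 12.28, was that of 72-hr array 3, at 0.04. All 48-hr arrays of this culture lie at higher fiber signal than its 72-hr arrays.

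In dispersed myoblasts the question was how the mitotic program changed as the cultures went from 48 to 72 hr. The members were slightly higher at 72 hr, with a median log2 difference of 0.10 (a fold of 1.07), and 36 of 40 lay above 0, against a median of 0.02 over all genes. With limma and a Benjamini-Hochberg adjusted p under 0.01, 2 members rose, Ect2 and Anln, and none fell, where 7.38% of all genes were called higher. At an adjusted p under 0.05 there were 7 (17.5%), against 15.0% of all genes. The 4 arrays at 72 hr all lay above the 4 at 48 hr for 9 members (22.5%), against 17.5% of all genes. The members' shares lay near those of all genes.

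Ect2, the guanine nucleotide exchange factor that activates RhoA at the division plane, was measured with a probe at chr3:26996278-26996337 of build mm9. Its log2 signal on the dispersed arrays was 12.15, 12.05, 12.16 and 12.07 at 48 hr and 12.49, 12.37, 12.34 and 12.48 at 72 hr. The groups did not overlap, and the log2 difference was 0.31 ± 0.05 (SE; adjusted p = 0.0039 by limma; exact permutation p = 0.0286, the smallest that 4 against 4 arrays can give). Anln encodes anillin, which links actin, myosin and septins in the contractile ring, and its probe lies at chr9:22136685-22136744 of mm9. Its signal was 14.34, 14.27, 14.26 and 14.21 at 48 hr and 14.70, 14.54, 14.49 and 14.49 at 72 hr. Here too the groups did not overlap, with a log2 difference of 0.29 ± 0.06 (SE; limma adjusted p = 0.0094). Both are cytokinesis factors. The other 5 members at the looser threshold were Nuf2 (0.32), Cenpe (0.29), Kif23 (0.22), Aurka (0.17) and Hmmr (0.17).

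Cenpf, a large kinetochore protein, had the largest difference in dispersed myoblasts and did not pass. Its values were 6.18, 5.75, 5.95 and 5.54 at 48 hr and 6.40, 5.99, 6.19 and 6.21 at 72 hr, which overlap, and the log2 difference was 0.34 ± 0.14 (SE; limma adjusted p = 0.12). At the other end stood Espl1, the separase that cuts cohesin, with 11.33, 11.10, 11.05 and 11.02 at 48 hr and 11.11, 10.98, 11.00 and 11.17 at 72 hr. Spc24, a subunit of the NDC80 complex that holds microtubules at the kinetochore, had 12.05, 11.85, 11.93 and 12.07, then 11.996, 11.794, 12.070 and 11.977. Ccnb1, cyclin B1, had 13.57, 13.54, 13.63 and 13.53, then 13.53, 13.56, 13.54 and 13.62. For these 3 the times overlapped, with log2 differences of -0.06 for Espl1, -0.02 for Spc24 and 0.00 for Ccnb1 (95% intervals -0.24 to 0.12, -0.19 to 0.16 and -0.10 to 0.09). Mki67 had 14.34, 14.40, 14.38 and 14.22 at 48 hr and 14.41, 14.29, 14.52 and 14.76 at 72 hr. Its difference of 0.16 ± 0.10 (SE; limma adjusted p = 0.28) did not pass.

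Neither call in dispersed myoblasts held in every alternative. With 1 fit of all 16 arrays no member passed, and Anln was lost whichever array was left out (adjusted p up to 0.21 over the alternatives). Ect2 was lost without 48-hr array 2 or 4 or 72-hr array 5, and with the mean of all probes (adjusted p up to 0.14).

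In myofiber-associated myoblasts all 40 members had higher means at 72 than at 48 hr, with a median log2 difference of 0.44 (a fold of 1.36) against 0.06 over all genes. The differences ran from 0.17 for Aurkb to 0.77 for Nuf2. Only Nuf2 rose at an adjusted p under 0.01 (2.5% of members, against 3.74% of all genes called higher). At an adjusted p under 0.05, 15 members did (37.5%), against 13.4% of all genes, and for 14 (35.0%), against 15.9%, the 2 times did not overlap. No member was called lower at either threshold, against 1.74% of all genes at 0.01 and 9.12% at 0.05.

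Nuf2, which with Ndc80 forms the microtubule-binding arm of the NDC80 complex, has its probe at chr1:171428989-171429048 of mm9. Its log2 signal on 48-hr arrays 10+11, 7, 8 and 9 was 10.77, 10.60, 10.86 and 10.47, and on 72-hr arrays 1 to 4 it was 11.66, 11.41, 11.57 and 11.15. The groups did not overlap, and the log2 difference was 0.77 ± 0.14 (SE; limma adjusted p = 0.0089). Nuf2 on the dispersed arrays was 11.23, 11.09, 11.05 and 11.09 at 48 hr and 11.61, 11.38, 11.39 and 11.35 at 72 hr. It did not overlap there either, with a difference of 0.32 ± 0.07 (SE; limma adjusted p = 0.014), short of the stricter threshold.

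Next in size came Spc24, Spc25, Cenpa and Ect2. Spc24 had 11.77, 11.33, 11.88 and 11.28 at 48 hr and 12.35, 12.39, 12.34 and 12.08 at 72 hr on the myofiber-associated arrays (log2 difference 0.72 ± 0.16, SE; limma adjusted p = 0.018). Spc25, its partner in the complex, had 14.12, 13.81, 14.08 and 13.64, then 14.75, 14.62, 14.81 and 14.29 (0.70 ± 0.15, SE; limma adjusted p = 0.018). For both, every 72-hr array lay above every 48-hr array. Cenpa, the histone H3 variant that marks the centromere, had 13.13, 12.52, 12.83 and 12.44, then 13.46, 13.40, 13.52 and 13.27, also without overlap (0.68 ± 0.16, SE; limma adjusted p = 0.021). Ect2 followed with 11.71, 11.28, 11.68 and 11.27, then 12.35, 12.09, 12.35 and 11.84, a log2 difference of 0.67. Every 72-hr array lay above every 48-hr one. Anln had 13.77, 13.44, 13.61 and 13.37, then 14.33, 13.98, 14.31 and 13.64, overlapping through array 4 (0.52 ± 0.17, SE; limma adjusted p = 0.059). Cenpf had 5.439, 4.953, 5.422 and 4.998, then 6.12, 5.70, 5.82 and 5.67, without overlap (0.63 ± 0.16, SE; limma adjusted p = 0.028).

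The smallest differences were those of Aurkb, Espl1 and Mad2l1. Aurkb, the kinase of the chromosomal passenger complex, had 6.71, 6.64, 6.92 and 6.14 at 48 hr and 7.05, 6.90, 6.88 and 6.29 at 72 hr (0.17 ± 0.21, SE). Espl1 had 11.06, 10.70, 10.92 and 10.39, then 11.06, 11.01, 11.25 and 10.91 (0.29 ± 0.15, SE). Mad2l1, the checkpoint protein MAD2 that holds back CDC20, had 12.91, 12.59, 12.93 and 12.56, then 13.18, 13.16, 13.14 and 12.73 (0.30 ± 0.14, SE). In each the 2 times overlapped, for Mad2l1 through array 4 alone. Mki67 had 14.55, 14.09, 14.17 and 13.87 at 48 hr and 14.88, 14.46, 14.75 and 14.35 at 72 hr, overlapping through array 10+11 (0.44 ± 0.18, SE; limma adjusted p = 0.099).

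Single arrays decided the count in myofiber-associated myoblasts. It was 4 without 72-hr array 4, 3 without 48-hr array 10+11 and 0 without any 1 of the other 6, and 37 with arrays weighted by their quality, where arrays 10+11 and 4 had the lowest weights of the 8 (0.27 and 0.58). Nuf2 kept a log2 difference of 0.70 to 1.05 over the alternatives, with adjusted p of up to 0.033.

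**Figure D4:**
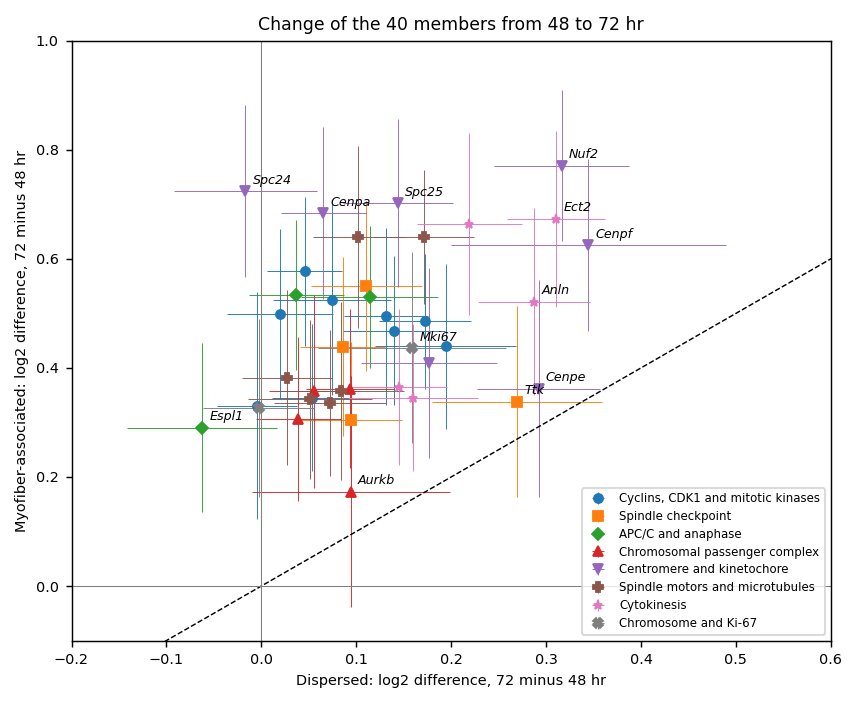
Change of each of the 40 members from 48 to 72 hr in dispersed (horizontal) and myofiber-associated myoblasts (vertical), as log2 difference with bars of 1 SE, marked by role. All 40 points lie above the dashed line of equal change, at medians of 0.10 (dispersed) and 0.44 (myofiber-associated).

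The difference between the cultures in this change was compared next. The change was smaller in dispersed than in myofiber-associated myoblasts for 40 of 40 members, with a median difference of -0.33 in log2, against -0.07 over all genes. Limma's interaction term called no member at an adjusted p under 0.01, where 2.36% of all genes were called lower. At an adjusted p under 0.05, 6 members were lower (15.0%), against 9.14% of all genes. These were Spc24 (-0.74), Cenpa (-0.62), Spc25 (-0.56), Ccna2 (-0.53), Ube2c (-0.50) and Hmmr (-0.47), with adjusted p of 0.017 to 0.040.

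In dispersed myoblasts 5 of these 6 had changes of -0.02 to 0.14 that did not pass either threshold, and Hmmr (0.17) passed 0.05. Cenpa had 13.60, 13.52, 13.46 and 13.47 on the dispersed 48-hr arrays and 13.60, 13.61, 13.58 and 13.53 on the 72-hr ones. Spc25 had 14.63, 14.55, 14.65 and 14.74, then 14.74, 14.73, 14.77 and 14.90. Ube2c, the ubiquitin-conjugating enzyme of the anaphase-promoting complex, had 14.01, 13.94, 14.00 and 13.85, then 14.04, 14.00, 13.93 and 13.97. In myofiber-associated myoblasts Ube2c was 13.21, 12.93, 13.24 and 12.89 at 48 hr and 13.72, 13.58, 13.79 and 13.31 at 72 hr, without overlap. At the other end, Cenpe, a kinetochore motor, and Ttk, the MPS1 kinase of the checkpoint, had interaction estimates of -0.07 each (95% intervals -0.54 to 0.40 and -0.50 to 0.37), as did Aurkb at -0.08 (-0.61 to 0.45). These intervals do not exclude a difference as large as the members' median. Cenpe was 13.84, 13.79, 13.75 and 13.58, then 14.13, 13.97, 14.01 and 14.02 on the dispersed arrays, and 13.69, 13.02, 13.33 and 12.90, then 13.84, 13.47, 13.79 and 13.29 on the myofiber-associated ones. Its times overlapped in the second culture and not in the first. Ttk at 48 hr was 8.65, 8.57, 8.64 and 8.37 on the dispersed and 7.97, 7.80, 8.02 and 7.73 on the myofiber-associated arrays, which did not overlap.

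Here the count rested on single arrays as well: it was 7 without myofiber-associated 72-hr array 4, 3 without 48-hr array 10+11, 1 without 48-hr array 8 and 0 without any 1 of the other 13. With array weights it was 33, and the median was -0.55.

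At 48 hr the members were lower in myofiber-associated than in dispersed myoblasts. This held for the means of 40 of 40, with a median log2 difference of -0.56 (a fold of 1.47), against -0.12 over all genes. At an adjusted p under 0.01, 25 members were lower (62.5%) and none higher, where 27.0% of all genes were called lower. At 0.05 there were 36 (90.0%), against 37.1%, and 32 (80.0%) did not overlap between the cultures, against 35.3%. Since culture and slide cannot be told apart, the difference is one between slides as well.

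Ube2c showed the largest difference at 48 hr, with every dispersed array (13.85 to 14.01) above every myofiber-associated one (12.89 to 13.24), a log2 difference of -0.88 ± 0.10 (SE; limma adjusted p = 0.00019). Aurkb followed, with 7.66, 7.45, 7.35 and 7.24 on the dispersed 48-hr arrays, all above its myofiber-associated values (-0.82 ± 0.17, SE; limma adjusted p = 0.0035). Next came Cenpa, at -0.78 ± 0.15 (SE; limma adjusted p = 0.0023). The kinases Aurka (-0.74) and Plk1 (-0.68), which mature the centrosomes, were lower too, as were Cdk1 (-0.56) and Ccna2 (-0.61). The smallest differences were those of Mki67 (-0.16 ± 0.14, SE), Nusap1 (-0.26 ± 0.13, SE) and Ccnb1 (-0.28 ± 0.18, SE), none of which passed either threshold. Nusap1, a binder of spindle microtubules, had 11.27, 11.19, 11.23 and 11.15 on the dispersed arrays and 11.29, 10.76, 11.06 and 10.71 on arrays 10+11, 7, 8 and 9. Ccnb1 on those 4 was 13.69, 13.00, 13.56 and 12.90. For Mad2l1, at -0.66, the dispersed arrays had 13.44, 13.36, 13.45 and 13.38 at 48 hr and 13.64, 13.45, 13.46 and 13.46 at 72 hr, all above its myofiber-associated values. For Mki67, Nusap1 and Ccnb1, array 10+11 lay above every dispersed 48-hr array, and for Ccnb1 array 8 overlapped with them too. Without dispersed array 1 or without dispersed array 2 the count was 16, and it was 15 with the slide row as a block.

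At 72 hr the gap was smaller. The median log2 difference was -0.21 (a fold of 1.15), against -0.02 over all genes, with 33 members below 0 and 7 above. At an adjusted p under 0.01, 4 members were lower (10.0%), against 15.6% of all genes: Aurkb, Kif20a, Aurka and Birc5. At 0.05 there were 13 lower (32.5%), against 25.0%, and 1 higher, Spc24, where 20.8% of all genes were higher. For 15 members (37.5%), against 26.1% of all genes, the myofiber-associated arrays lay below all dispersed ones.

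Aurkb had 7.66, 7.61, 7.36 and 7.44 on the dispersed 72-hr arrays, above all 4 myofiber-associated ones, and its difference of -0.74 ± 0.17 (SE; limma adjusted p = 0.0079) was close to that at 48 hr. Ttk had 8.91, 8.83, 8.95 and 8.63 against 8.43, 8.38, 8.37 and 7.69 (-0.61 ± 0.17, SE; limma adjusted p = 0.020). Kif20a, a kinesin of the central spindle, had 13.59, 13.32, 13.46 and 13.31 against 13.07, 12.90, 12.97 and 12.64 (-0.53 ± 0.11, SE; limma adjusted p = 0.0061), after 13.30, 13.21, 13.26 and 13.27 against 12.72, 12.34, 12.71 and 12.41 at 48 hr. In these 3 the cultures did not overlap. Spc24 was the exception in direction, with all 4 myofiber-associated arrays (12.08 to 12.39) above the dispersed ones, which reached 12.07 (0.33 ± 0.09, SE; limma adjusted p = 0.021). Next above 0 were Mki67 at 0.12 ± 0.15 (SE) and Nusap1 at 0.10 ± 0.11 (SE), both overlapping between the cultures. Nusap1 was 11.18, 11.26, 11.20 and 11.31 on the dispersed and 11.50, 11.24, 11.52 and 11.09 on the myofiber-associated 72-hr arrays. Ccnb1 was 13.79, 13.53, 13.83 and 13.34 on the myofiber-associated ones.

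The count of 4 at 72 hr fell to 0 without any 1 of the 4 dispersed arrays or without myofiber-associated array 2, was 2 without array 1, 3 without array 3 and 5 without array 4, and was 0 with no filter on low signal and 1 with the slide row as a block. Without array 4 the median was -0.11.

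**Figure D5:**
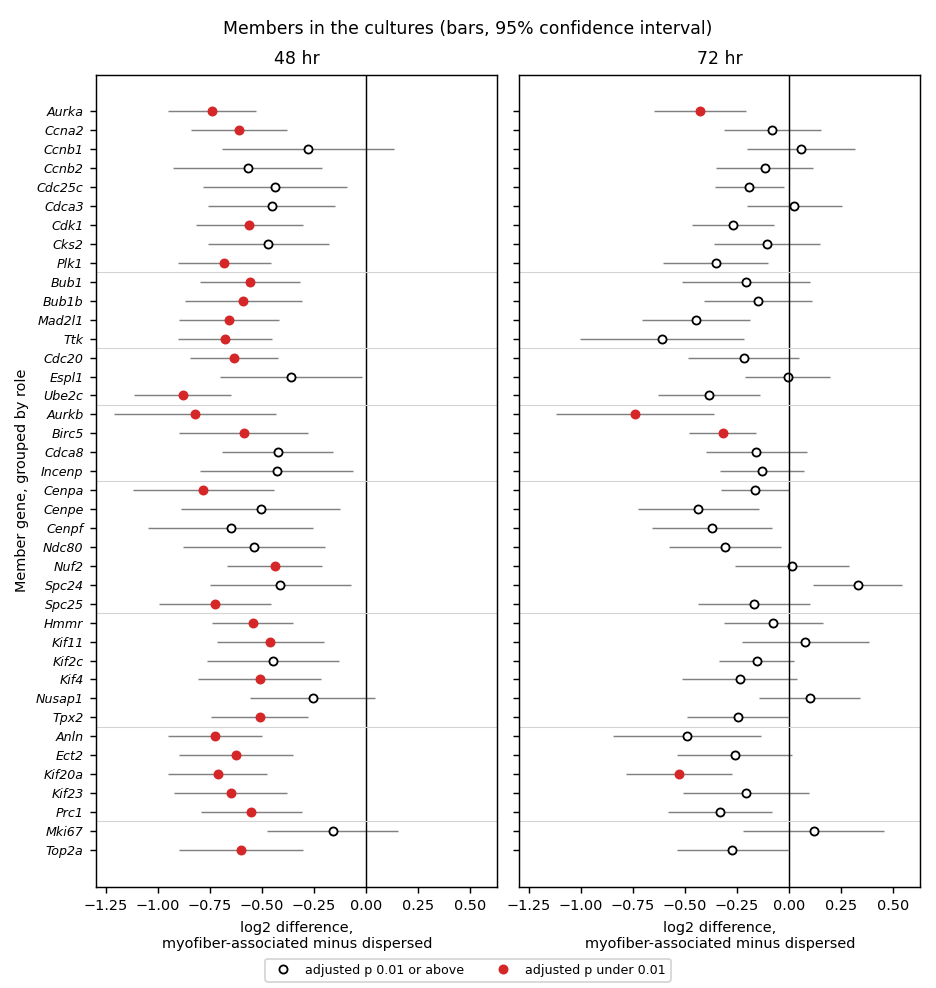
Log2 difference between myofiber-associated and dispersed myoblasts at 48 hr (left) and 72 hr (right) for each of the 40 members, grouped by role, with 95% confidence intervals and filled points for an adjusted p under 0.01. At 48 hr all 40 points lie left of 0 and 25 are filled, and at 72 hr 33 lie left of 0 and 4 are filled.

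By role, the 9 cyclins, CDK1 partners and mitotic kinases (Ccna2, Ccnb1, Ccnb2, Cdk1, Cks2, Cdc25c, Cdca3, Plk1 and Aurka) had a median change over time of 0.07 (dispersed) and 0.49 (myofiber-associated). In the latter culture Ccna2 (0.58), Aurka (0.49) and Plk1 (0.47) passed an adjusted p of 0.05, where 37.5% of all members and 13.4% of all genes were called higher. Their median difference between the cultures was -0.56 at 48 hr and -0.12 at 72 hr. Ccna2, cyclin A2, shows the pattern array by array. Its signal was 13.61, 13.53, 13.64 and 13.60, then 13.68, 13.61, 13.64 and 13.64 on the dispersed arrays, and 13.10, 12.82, 13.19 and 12.83, then 13.67, 13.60, 13.70 and 13.27 on the myofiber-associated ones. Only the myofiber-associated 48-hr arrays and, less so, array 4 at 72 hr stood below the rest.

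The 4 spindle checkpoint genes, Bub1, Bub1b, Mad2l1 and Ttk, all passed at 48 hr between the cultures (-0.56 to -0.68), where 62.5% of all members and 27.0% of all genes were called lower, and their median at 72 hr was -0.33. Bub1b, which encodes BUBR1, was the one that passed 0.05 over time in myofiber-associated myoblasts (0.55), against 37.5% of all members and 13.4% of all genes. Of the anaphase genes, Cdc20, which activates the anaphase-promoting complex, and Ube2c had like changes there, 0.53 each, and Espl1 had 0.29. The chromosomal passenger complex, Aurkb with Birc5, Incenp and Cdca8, was the group with the smallest change over time in myofiber-associated myoblasts, with a median of 0.33 and none past 0.05. Between the cultures at 72 hr Aurkb (-0.74) and Birc5 (-0.32) passed 0.01, against 15.6% of all genes called lower, and Cdca8 (-0.16) and Incenp (-0.13) did not pass 0.05. Differences between subunits were not tested.

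Centromere and kinetochore genes had the largest median change of the 8 groups in myofiber-associated myoblasts, 0.68 over 7 genes. Of these, 5 passed 0.05 (Nuf2, Spc24, Spc25, Cenpa and Cenpf), where 37.5% of all members and 13.4% of all genes were called higher. Cenpe (0.36) and Ndc80 (0.41) did not pass it. The 4 subunits of the NDC80 complex thus ran from 0.41 for Ndc80 to 0.77 for Nuf2. Of the 6 spindle genes, Kif11, the motor that pushes the poles apart, and Hmmr had 0.64 each and passed 0.05, against the same shares. Tpx2, Kif2c, Kif4 and Nusap1 had 0.34 to 0.38 and did not. The 5 cytokinesis genes, Kif20a, Kif23, Prc1, Anln and Ect2, had the largest median of any group in dispersed myoblasts, 0.22, and were lower in the myofiber-associated culture at 48 hr in 5 of 5 cases at 0.01 (-0.55 to -0.73), against the same 27.0% of all genes. Top2a, the topoisomerase that untangles chromatids, had changes of 0.00 (dispersed) and 0.33 (myofiber-associated) and passed at 48 hr between the cultures (-0.60). No group's difference from another was tested.

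Of 106 mitosis genes outside the 40, 104 were tested, with a median change over time of 0.08 (dispersed) and 0.40 (myofiber-associated), and of -0.51 and -0.21 between the cultures at 48 and 72 hr. At an adjusted p under 0.01, where 7.38% and 3.74% of all genes were called higher in the 2 cultures, 5 rose in dispersed myoblasts (Sgol2 0.39, Kif20b 0.30, Parpbp 0.27, Arhgap11a 0.26 and Ckap2 0.23) and 2 in myofiber-associated ones (Cdc25b 1.06 and Kifc1 0.87). Cdc25b, a phosphatase that starts CDK1 activation, had 12.73, 12.60, 12.65 and 12.66, then 12.73, 12.71, 12.86 and 13.01 on the dispersed arrays, and 12.68, 12.14, 12.54 and 11.99, then 13.49, 13.32, 13.57 and 13.22 on the myofiber-associated ones. It was the 1 gene of the list called in the difference between the cultures (-0.90 ± 0.19, SE; limma adjusted p = 0.0094). At 48 hr 69 of the 104 were lower in myofiber-associated myoblasts, against 27.0% of all genes, led by Ccnf (-1.46), Nsl1 (-1.26), Gtse1 (-1.11), Ncapg (-1.02) and Spdl1 (-0.97), and 4 were higher, Ndel1 (0.80), Pttg1 (0.68), Anapc5 (0.58) and Zwint (0.32). At 72 hr 12 of the 104 were lower, fewer than the 15.6% of all genes, led by Ccnf (-1.16), Mis12 (-0.83), Nsl1 (-0.75), Ska2 (-0.75) and Ncapg (-0.72), and 2 higher, Cdc25b (0.57) and Anapc2 (0.25).

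Among 20 genes that control G2/M transcription, the median change over time was 0.09 (dispersed) and 0.15 (myofiber-associated). Foxm1, the forkhead activator of these genes, had 11.72, 11.52, 11.60 and 11.58 on the dispersed 48-hr arrays and 11.67, 11.55, 11.55 and 11.50 at 72 hr. On the myofiber-associated arrays it was 11.44, 11.05, 11.22 and 10.94 at 48 hr and 11.27, 11.21, 11.38 and 11.04 at 72 hr. Its log2 change was -0.04 and 0.07 in the 2 cultures, neither past either threshold. Mybl2 changed by -0.24 ± 0.06 (SE; limma adjusted p = 0.021) in dispersed and 0.26 ± 0.15 (SE; 0.23) in myofiber-associated myoblasts. At 0.01, Nfyb, a subunit of the CCAAT-binding factor NF-Y, rose in dispersed myoblasts (0.25), and no gene of the list changed in myofiber-associated ones or differed in its change between the cultures. At 0.05, 2 of the 20 were higher and 3 lower in the difference between the cultures, against 6.27% and 9.14% of all genes.

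Between the cultures at 48 hr, where 27.0% of all genes were called lower and 16.1% higher, the list's shares lay near those of all genes: 7 of the 20 were lower, led by E2f2 (-1.05), E2f8 (-0.92), Nfya (-0.90), E2f7 (-0.86) and Mybl2 (-0.76), and 3 were higher, E2f4 (1.58), E2f6 (1.099) and Lin37 (0.70). E2f4 encodes a repressor E2F of the DREAM complex and LIN37 is a core DREAM subunit, but other DREAM genes went the other way. Lin9, of the same core, was called lower in myofiber-associated myoblasts at 72 hr (-0.57), as was E2f5 (-0.63). Rbl1 was called lower there at 48 hr (-0.56). The part of DREAM in the members' differences was not tested. E2f4 was 9.41, 9.35, 9.29 and 9.36 on the dispersed 48-hr arrays and 10.34, 10.98, 11.01 and 11.38 on the myofiber-associated ones, then 9.17, 9.33, 9.18 and 9.40 against 9.72, 10.59, 9.47 and 10.98 at 72 hr. On the myofiber-associated arrays its order followed that of the fiber markers at 72 hr, highest on arrays 4 and 2. The part of fiber RNA in this was not tested. At 72 hr, where 15.6% of all genes were lower, 5 of the 20 were, E2f7 (-0.77), E2f5 (-0.63), Lin9 (-0.57), Nfya (-0.56) and E2f8 (-0.47), and Lin37 was higher (0.63).

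The members are measured by 58 probes, 54 of them well above background on all 16 arrays, and 13 members have several. Of the 14 further probes that were above background throughout, 14 had the same sign as the probe used in each culture over time and at 48 hr between the cultures, and 12 in the interaction and at 72 hr. Values depended on the probe for several members. For Ccnb1 the brightest probe gave 0.33 over time in myofiber-associated myoblasts and the other 2 gave 0.01 and 0.09. For Mad2l1 the brightest gave 0.30 and the others 0.11 and 0.06, and for Tpx2 the brightest gave 0.34 and the other 0.64. At 48 hr between the cultures the 3 Cdk1 probes gave -0.56, -0.78 and -0.22. The Ccnb1 probes, brightest first, gave -0.28, -0.39 and -0.51 at 48 hr between the cultures, and 0.06, -0.32 and -0.28 at 72 hr. The place of Ccnb1 among the smallest differences at 48 hr and its sign at 72 hr thus depended on the probe. A dim second Ect2 probe, above background on 14 arrays, gave 1.22 over time in myofiber-associated myoblasts against 0.67, and 0.91 at 72 hr between the cultures against -0.26. Both probes of Mki67 gave close values, 0.44 and 0.46, as did those of Ube2c, 0.53 and 0.62.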

How the data were processed

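Each of 16 RNA samples was measured on a one-color mouse array from Agilent (design 028005, probe positions of build mm9, Feature Extraction 11.0.1.1 per the file headers). The values the authors deposited for a spot are fluorescence intensities from the scanner software, which had corrected them for background. A further table the authors deposited holds log2 values, 72-hr arrays relative to the 48-hr mean of their culture, loess- and quantile-normalized according to the methods. The table was used as an alternative only. Its column medians ran from -0.000531 to 0.0686, and its columns correlated with the changes computed here at r = 0.975 to 0.987 across genes, which fixed its scale and direction.

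Outlier spots were left out, log2 signals were fitted by loess (span 0.3, 4 iterations) against the 48-hr mean of their culture and quantile-normalized over 16 arrays, identical probes were averaged, and the brightest probe stood for a gene. Genes with a median log2 signal of at least 5 were tested with limma on the 8 arrays compared (16 for the interaction), two-sided, with Benjamini-Hochberg adjustment over 20317 genes and a threshold of 0.01. The methods name samr, in whose place limma was used. Values in the text are log2 signals after this normalization. Exact permutation tests of 4 against 4 arrays were two-sided.

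The members and gene lists were chosen with earlier results of these data known. Values in every sample are given for Mki67, members past the threshold in a comparison of times, and the 3 highest and 3 lowest members of each comparison. Of the other lists, called genes are named, at most 5 in each direction. Ccna2, Aurka, Plk1 and the other members named beside these were named to describe their group after their values were seen.

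Alternatives were quantile normalization alone, a scaling by the 75th percentile, normexp (offset 50), no filter or a background filter on low signal, the mean of all probes, 1 fit of all arrays, array weights, the slide row as a block, each array left out, a threshold of 0.05 and the authors' table. The scripts were tested on simulated data. Fits used limma 3.58.1 in R 4.3.3. Figures were drawn with matplotlib 3.10.9, and Python 3.11.15 with numpy 2.4.6 and pandas 2.3.3 served for the promoter search. The number of arrays limits the precision.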

Additional observations from a re-analysis of the deposited data

Results flagged for a closer look

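In 264 groups of 4 arrays, for the named genes and the members' median, 17 held an array whose gap to the nearest other, as a share of the group's range, was above Dixon's critical value (6.44%; chance gives about 5%). For members these were dispersed 72-hr array 5 for Mad2l1 (0.911), Nuf2 (0.854) and the members' median (0.833), each high, and myofiber-associated 72-hr array 4 for Mad2l1 (0.904), Ttk (0.924) and Spc24 (0.843), each low. The same array 4 was low for Parpbp (0.913) and Ska2 (0.833). Dispersed 48-hr array 4 stood apart for Ccne2 (0.933, low), Parpbp (0.889, low), Pttg1 (0.86, high) and Ncapg (0.864, high), array 2 for Rrm2 (0.898, low) and array 1 for Nfya (0.833, high). Dispersed 72-hr array 5 was high for Kif20b (0.877). Myofiber-associated 48-hr array 10+11 was low for Cdkn1c (0.86) and array 9 high for Zwint (0.871).

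The change from 48 to 72 hr, dispersed minus myofiber-associated, differed between the cultures by limma's interaction term at an adjusted p under 0.01 for Cdkn2a (-1.68), Cdkn2b (-1.33) and Cdc25b (-0.90), and for none of the 40 members.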

How the results depend on the processing

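Every alternative kept the sign of the members' median in all 5 comparisons. At 48 hr between the cultures the median of all genes was -0.12, and -0.02 with normexp, which tested 34836 genes, -0.05 with no filter on the same number, and -0.07 with the 75th percentile. The counts of members past the threshold moved further than 1.5 times under some settings. In dispersed myoblasts the count of 2 became 7 at a threshold of 0.05, 1 with no filter, with the background filter or with the mean of all probes, 0 with 1 fit of 16 arrays, 5 with array weights, and 0 to 2 with an array left out. In myofiber-associated myoblasts the count of 1 became 15 at 0.05, 20 with 1 fit of 16 arrays, 37 with array weights, 13 in the authors' table, and 0 with normexp, no filter, the background filter, the mean of all probes or the slide row as a block, and was 0 to 4 with an array left out (3 without 48-hr array 10+11). For the difference between the cultures, 0 became 6 at 0.05, 33 with array weights (median -0.55) and 8 in the authors' table, and was 0 to 7 with an array left out (3 without 48-hr array 10+11). At 48 hr between the cultures 25 became 39 with array weights and 15 with the slide row as a block, and 16 to 35 with an array left out (26 without myofiber-associated array 8). At 72 hr 4 became 13 at 0.05, 7 with 1 fit of 16 arrays, 1 with the slide row as a block and 0 with no filter, and 0 to 5 with an array left out. The tests of the authors' table leave out the spread of the 48-hr arrays, and array weights gave the myofiber-associated arrays 10+11 and 4 the least weight over time; otherwise the cause was not tested. No paired analysis was possible because the groups compared share no replicate numbers from one preparation.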

Other observations

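Of 43 DNA replication genes tested, the median log2 difference was -0.42 at 48 hr and -0.14 at 72 hr, between the cultures (-0.12 and -0.02 over all genes). The lower calls lay near the shares of all genes, 12 at 48 hr (27.0% of all genes) and 7 at 72 hr (15.6%). Higher calls lay below those shares, with 1 at each time, against 16.1% and 11.5% of all genes. Lower genes were led at 48 hr by Ccne2 (-1.26), Pola2 (-0.93), Ccne1 (-0.82), Orc6 (-0.68) and Gins2 (-0.67), and Ung was higher (0.37). At 72 hr they were led by Ccne2 (-1.48), Orc1 (-0.78), Slbp (-0.59), Gins2 (-0.56) and Pola2 (-0.49), and Rrm2 was higher (0.38). Over time the median of the 43 genes was 0.01 (dispersed) and 0.26 (myofiber-associated). The 1 call over time was Mcm5, a subunit of the replicative helicase, lower at 72 hr in dispersed myoblasts (-0.34).

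Inhibitors of cyclin-dependent kinases and pocket proteins included changes over time above those of any member. Cdkn2a, which encodes p16INK4a and p19ARF, was 11.81, 11.77, 11.53 and 11.84, then 12.64, 12.65, 12.77 and 13.32 on the dispersed arrays, and 11.14, 10.23, 10.92 and 10.52, then 13.56, 13.42, 13.96 and 13.03 on the myofiber-associated ones. Its change was 1.11 ± 0.15 and 2.79 ± 0.25 (SE; limma adjusted p = 0.0017 and 0.00087). Cdkn2b, its neighbor, rose by 0.85 and 2.18, and Cdkn2d by 0.37 and 0.59. Cdkn1a, the p53 target p21, changed by 0.17 and 0.39 and passed neither threshold in either culture. Of the 10 genes tested, 3 were called higher over time in each culture, against 7.38% (dispersed) and 3.74% (myofiber-associated) of all genes. Between the cultures the shares lay near those of all genes. Cdkn1c was lower in myofiber-associated myoblasts at 72 hr (-1.17) and Cdkn2c higher (0.34), against 15.6% and 11.5% of all genes. At 48 hr 3 of the 10 were lower, Cdkn2a (-1.04), Cdkn2b (-0.76) and Rbl1 (-0.56), against 27.0% of all genes.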
